A study of Mus musculus with 8 samples.

Results

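Superoxide dismutases, glutathione peroxidases, a mitochondrial peroxiredoxin and catalase, together with the thioredoxin inhibitor Txnip, were followed in mouse heart RNA after doxorubicin (DOX), a chemotherapy drug of the anthracycline class whose use is limited by damage to the heart. The genes were chosen by name: Sod1, Sod2, Sod3, Cat, Gpx1, Gpx3, Gpx4, Prdx3, Prdx5 and Txnip, with every probe set whose platform gene symbol was 1 of these. Of the 10 genes, 9 were measured, by 20 probe sets, among 13008 genes tested in all. No probe set carried the symbol Prdx5 in the platform table, so that peroxiredoxin is not analysed here. The hearts came from male mice aged 6 to 8 weeks, either wild type (MT+/+) or labelled null for metallothioneins I and II (MT-/-), small metal-binding proteins that also take up oxidants. A mouse received DOX in 1 intraperitoneal injection of 15 mg/kg, or saline, and its heart was taken on day 4. This gives 4 groups (MT+/+ saline, MT+/+ DOX, MT-/- saline and MT-/- DOX) of 2 one-colour Affymetrix arrays each, labelled as biological replicates. The limma p-values rest on the spread between the 2 arrays within a group, shared over the 4 groups and drawn toward that of all probe sets tested. The labels name neither the strain nor the null alleles, and do not say whether animals were pooled.

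Superoxide is turned into hydrogen peroxide by the superoxide dismutases, of which Sod1 works mainly in the cytosol, Sod2 in the mitochondrial matrix and Sod3 outside the cell, bound to the matrix around it. The peroxide is then removed by catalase in peroxisomes, by the selenium-containing glutathione peroxidases (Gpx1 mainly in the cytosol, Gpx3 secreted, Gpx4 against lipid peroxides in several compartments) and by peroxiredoxins such as the mitochondrial Prdx3, which is recharged by thioredoxin. Txnip binds and inhibits thioredoxin. In the heart most of the oxidant arises in mitochondria, and DOX can take part in redox cycling there.

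Intensities are given as deposited, on a linear scale, and can be compared between arrays for 1 probe set but not between probe sets. Changes are differences of log2 values after quantile normalization, with ± the standard error of the limma fit, and a change is called at a Benjamini-Hochberg adjusted p under 0.05 over the 24751 probe sets tested. A gene is represented by its tested probe set with the highest mean. Array medians lay between 80.0 and 87.4, and the 2 arrays of a group correlated with each other at 0.976 to 0.984. Arrays of different groups correlated at 0.924 to 0.985. Mt1 and Mt2, the genes named as inactivated, did not give low signal on the arrays labelled MT-/-. The Mt1 probe set 1422557_s_at read 3722 and 4034 on MT+/+ saline, 6735 and 9285 on MT+/+ DOX, 4667 and 5322 on MT-/- saline, and 12549 and 12850 on MT-/- DOX. The other Mt1 probe set, 1451612_at, was dim, at 63.4 to 103. Mt2 read 452 and 485, 1210 and 2732, 968 and 1018, and 2218 and 2213 in the same order. With 1422557_s_at and the Mt2 probe set, every array labelled MT-/- was above both MT+/+ saline arrays, while 1451612_at overlapped between them. Whether these probe sets lie in a deleted part is not known here, so genotype is used below as the label states it.

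Across both genotypes, 5 of the 9 measured genes were called after DOX: Gpx3 and Txnip rose, and Sod3, Gpx1 and Sod2 fell. Of all probe sets tested, 13.9% were called in that comparison, 7.03% higher and 6.84% lower. The 4 DOX and 4 saline arrays did not overlap for 4 of the 9 genes (Gpx1, Gpx3, Sod2 and Sod3), against 18.4% of all probe sets. In MT+/+ hearts alone 3 genes were called (Gpx3 higher, Gpx1 and Sod3 lower) where the whole table had 2.48%, and the 3 called in MT-/- hearts were the same, where it had 6.21%. These counts are of few genes and rest on few arrays. The averaged count of 5 was 3 without MT+/+ DOX replicate 2, MT-/- saline replicate 1 or MT-/- DOX replicate 2. The MT+/+ count was 0 without MT+/+ saline replicate 2 or MT+/+ DOX replicate 2 and 1 without MT+/+ DOX replicate 1, and the MT-/- count was 1 without either MT-/- saline array. With replicate number as a block, the MT-/- count was 5, but the block also called more of the whole table, as the last section gives. The median change of the 9 genes was 0.07, beside -0.01 over all genes tested, so the group as a whole did not shift in 1 direction.

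**Figure D1:**
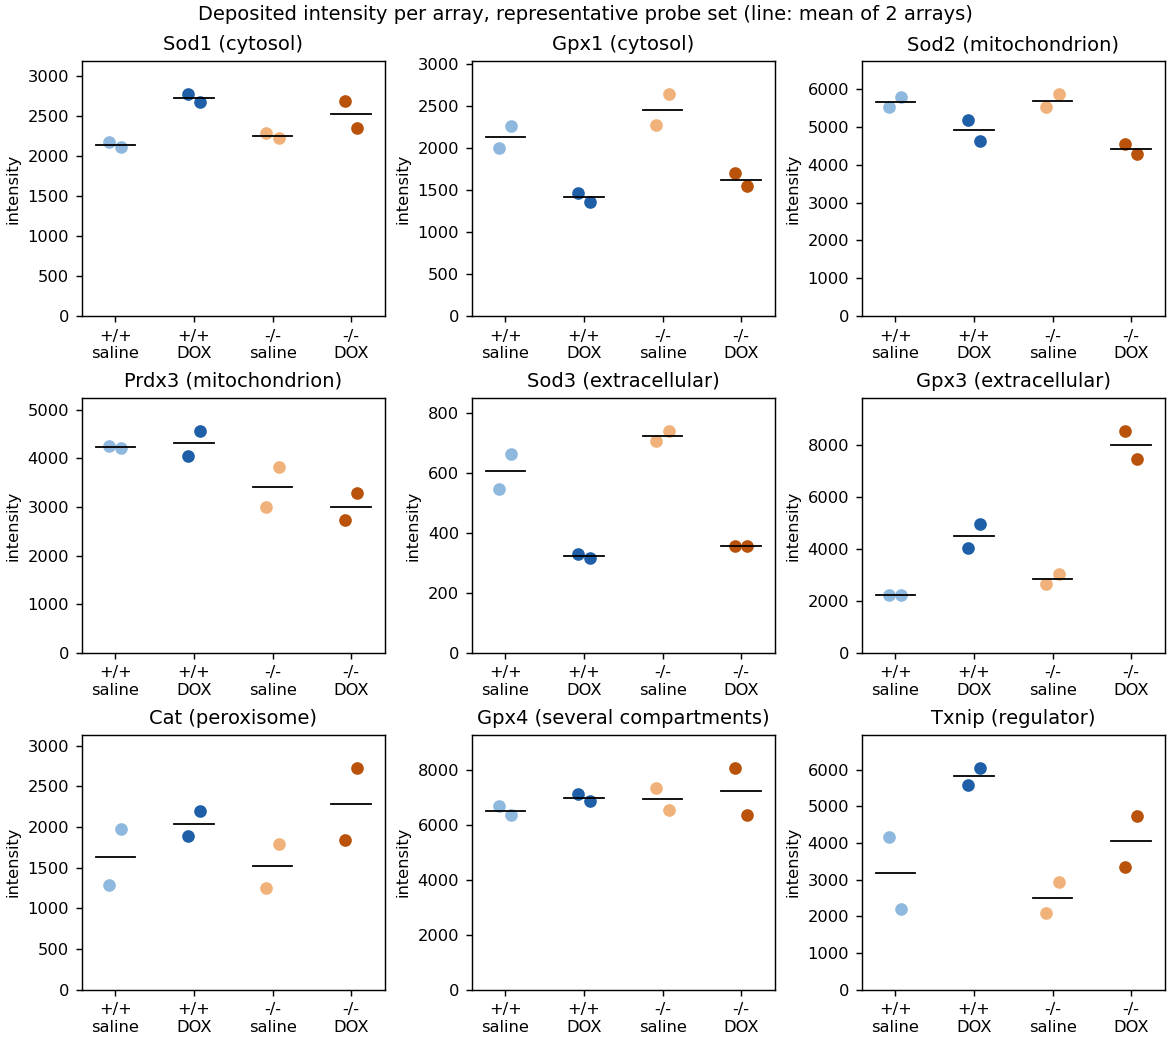
Deposited intensity (linear scale) of the representative probe set of each of the 9 measured genes on the 8 arrays, with points for arrays and a line for the mean of the 2 arrays of a group. Gpx3 is highest on the 2 MT-/- DOX arrays (8526 and 7455), Sod3 is low on all 4 DOX arrays (317 to 355), and Prdx3 is lower on the 4 arrays labelled MT-/- than on the 4 labelled MT+/+.

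The cytosolic enzymes went separate ways: Gpx1 fell with DOX in both genotypes, whereas the representative probe set of Sod1 was not called. Gpx1, the general glutathione peroxidase of the cytosol, read 1996 and 2267 on MT+/+ saline, 1467 and 1361 on MT+/+ DOX, 2274 and 2639 on MT-/- saline and 1702 and 1542 on MT-/- DOX. All 4 DOX arrays lay below all 4 saline arrays. Gpx1 fell by 0.65 ± 0.09 on the log2 scale, 1.57-fold (adjusted p 0.00232), averaged over genotypes. The values were close to each other in MT+/+ (-0.66 ± 0.12, adjusted p 0.0317) and MT-/- (-0.63 ± 0.12, adjusted p 0.0204), and the difference between them was 0.03 with a 95% interval of -0.36 to 0.42. The averaged fall was kept under all alternatives, with an adjusted p of at most 0.0143 when an array was left out. The MT+/+ call was lost without either MT-/- saline array or any 1 MT+/+ array (adjusted p up to 0.186), with the deposited scaling (0.0625) and with median centring (0.0920). The MT-/- call was lost without MT-/- saline replicate 1 or 2 or MT-/- DOX replicate 2 (up to 0.146), with median centring (0.0531) and with the compared groups alone (0.0561).

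In heart tissue a lower signal can come from fewer cells of a type or from less RNA per cell, and these cannot be told apart here. Of all genes tested, 14.8% were called for DOX averaged over genotypes, the share to set beside marker counts here and below. It is from the main fit. The replicate block called more of the whole table, so counts with the block are not to be set beside it. Macrophage markers were lower beside Gpx1: 10 of 12 tested fell, 0 rose, and their summed intensity ranged from 11385 to 13021 on MT+/+ saline, 5679 to 6398 on MT+/+ DOX, 10467 to 11335 on MT-/- saline and 7192 to 7422 on MT-/- DOX. Of 5 red cell markers 2 fell and 0 rose, with sums of 1094 to 1818, 346 to 404, 1362 to 1693 and 347 to 350 in the same order. Red cells carry much Gpx1 protein, and Hbb-b2, an adult beta globin, fell by 2.64 ± 0.21 on the log2 scale (adjusted p 2.58e-04). Hbb-b2 was the dimmest of the 5, with a lowest intensity of 22.9, and Alas2 was the other that fell. For Klf1, Slc4a1 and the globin gene Hba-a1 limma made no call. Changes of the 5 ran from -3.91 to 0.14, with a median of -0.28, so the fall was not shared by the whole list. No tested marker of either type was at 0. Their part in the Gpx1 value was not tested.

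Sod1, the copper-zinc dismutase of the cytosol, read 2170 and 2109 on MT+/+ saline, 2771 and 2672 on MT+/+ DOX, 2287 and 2224 on MT-/- saline and 2691 and 2347 on MT-/- DOX with its representative probe set, 1451124_at. As deposited, all 4 DOX arrays were above all 4 saline arrays, but they overlapped after normalization. The change was 0.19 ± 0.09 (adjusted p 0.223; 95% interval -0.02 to 0.40), with 0.28 ± 0.13 in MT+/+ and 0.10 ± 0.13 in MT-/-. The other tested Sod1 probe sets gave averaged changes of 0.47 ± 0.16 (1459976_s_at, adjusted p 0.103), 0.70 ± 0.22 (1435304_at, adjusted p 0.0678) and 0.20 ± 0.15 (1440222_at, adjusted p 0.472). All 4 are positive and none was called. With the replicate number as a block, 1459976_s_at (adjusted p 6.28e-04) and 1435304_at (adjusted p 0.00369) passed. The former also passed with the deposited scaling (0.0413) and median centring (0.0380), and the latter without MT-/- DOX replicate 1 (0.00853). The mean over the 4 probe sets of Sod1 was 0.39 (adjusted p 0.0180). The fifth probe set, 1447761_x_at, read 12.5 to 20.7 and was too dim to be tested. Ccs, the chaperone that loads copper into Sod1, gave 0.25 ± 0.09 (adjusted p 0.111, or 0.0247 with the block) and was not called in the fit without it.

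**Figure D2:**
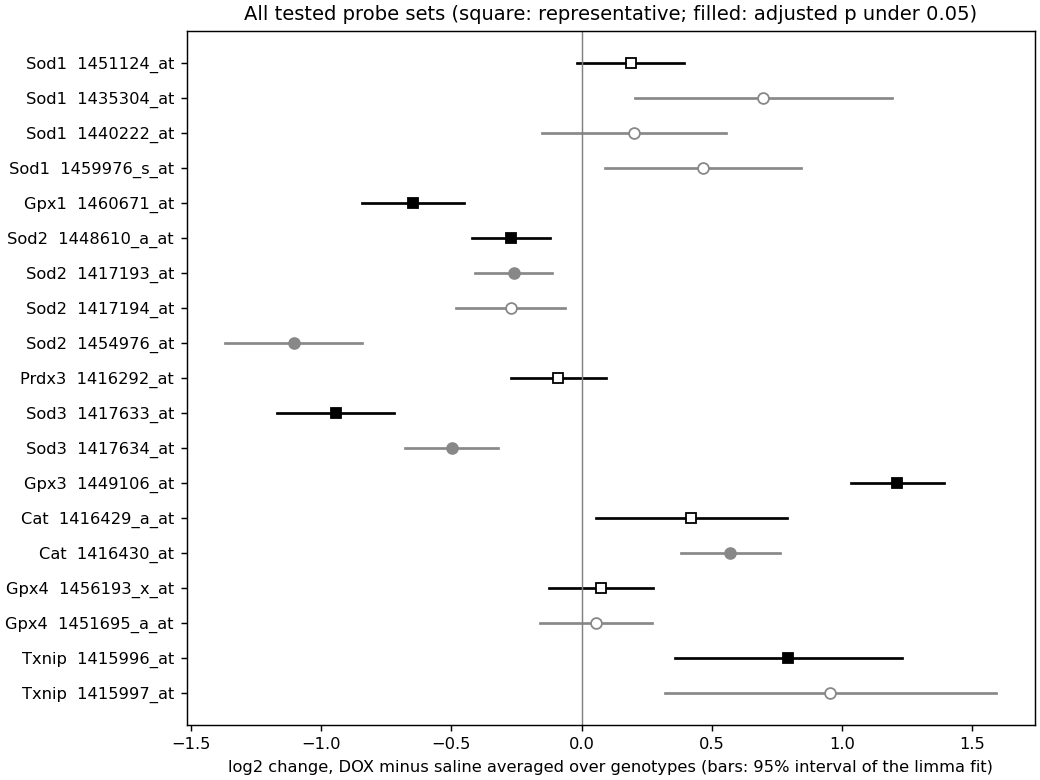
Averaged log2 change after DOX for each of the 19 tested probe sets of the 9 genes, with 95% intervals of the limma fit, squares for the representative probe sets and filled symbols for adjusted p under 0.05. The 4 Sod1 probe sets lie to the right of 0 with open symbols, and 1454976_at of Sod2 lies at -1.11, apart from the other 3 Sod2 probe sets.

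In mitochondria Sod2 fell with DOX while Prdx3 was not called for DOX. Sod2, the manganese dismutase of the matrix, read 5520 and 5776 on MT+/+ saline, 5190 and 4621 on MT+/+ DOX, 5531 and 5858 on MT-/- saline and 4550 and 4295 on MT-/- DOX with 1448610_a_at. The 4 DOX arrays lay below the 4 saline arrays, by a small margin. Sod2 fell by 0.27 ± 0.07 on the log2 scale, 1.21-fold (adjusted p 0.0270), with -0.18 ± 0.09 in MT+/+ (adjusted p 0.391) and -0.36 ± 0.09 in MT-/- (adjusted p 0.0541, or 0.0112 with the replicate number as a block). That in MT-/- also passed with the deposited scaling (0.0489), as the mean of the 4 probe sets (0.0238) and without MT-/- DOX replicate 1 (0.0474). That averaged call disappeared when any 1 array other than MT+/+ DOX replicate 1 and MT-/- DOX replicate 1 was left out (adjusted p 0.0712 to 0.0911). It was also lost without the mean-variance trend (0.0749).

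A second Sod2 probe set, 1417193_at, gave -0.26 ± 0.07 (adjusted p 0.0316), and the dim 1417194_at gave -0.27 ± 0.09 (adjusted p 0.0895, or 0.0196 with the block). The call of 1417193_at was lost in the same 6 cases of an array left out (up to 0.114), with median centring (0.0695), without the filter (0.0510) and without the trend (0.0846). The fourth, 1454976_at, fell further. It read 804 and 1060 on MT+/+ saline, 421 and 521 on MT+/+ DOX, 871 and 957 on MT-/- saline and 370 and 400 on MT-/- DOX, with the DOX arrays well below the saline arrays in both genotypes. Its averaged change was -1.11 ± 0.12, 2.15-fold lower (adjusted p 7.43e-04), with -1.03 ± 0.16 in MT+/+ (adjusted p 0.0182) and -1.18 ± 0.16 in MT-/- (adjusted p 0.00574). The MT+/+ call of 1454976_at was lost without MT+/+ saline replicate 2 (adjusted p 0.107), MT+/+ DOX replicate 1 (0.111) or MT+/+ DOX replicate 2 (0.0761). Within an array, 1454976_at stood at -2.59 ± 0.17 (SD, n = 4) relative to 1448610_a_at under saline and at -3.42 ± 0.21 under DOX (exact two-sided permutation p 0.0286, the smallest that 4 against 4 allows; 0.143 after Benjamini-Hochberg over 10 such differences). This comparison was chosen after the values had been seen and did not pass the correction. Several of the 10 differences would have to reach that smallest p for any to pass, so the failed correction decides nothing. No source used here says which transcripts each probe set detects. The ratio of 3' to 5' actin control signal, an RNA quality measure, was 1.14 to 1.24 on saline arrays and 0.913 to 1.18 on DOX arrays, and its part in the difference was not tested. The same ratio for Gapdh was 0.984 to 1.05 on saline arrays and 0.993 to 1.04 on DOX arrays.

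Prdx3, the peroxiredoxin of the mitochondrial matrix, read 4258 and 4212 on MT+/+ saline, 4059 and 4563 on MT+/+ DOX, 2996 and 3816 on MT-/- saline and 2731 and 3281 on MT-/- DOX. All 4 arrays labelled MT-/- lay below all 4 labelled MT+/+, whichever treatment they had. The averaged DOX change was -0.09 ± 0.08 (adjusted p 0.552; 95% interval -0.27 to 0.09), with 0.06 ± 0.11 in MT+/+ and -0.24 ± 0.11 in MT-/- (adjusted p 0.293). Genes of mitochondrial mass and the cardiomyocyte markers are given beside these enzymes, since both bear on mitochondrial content. Of 13 mitochondrial mass genes 3 fell and 1 rose, with Cs, citrate synthase, at -0.38 ± 0.06 and Tomm20, an import receptor of the outer membrane, at 0.29 ± 0.07, and their median was -0.17. The count of 3 was 1 without MT+/+ saline replicate 1, MT+/+ DOX replicate 2 or MT-/- saline replicate 1, the rise disappeared without any 1 array except MT+/+ saline replicate 2 and MT-/- DOX replicate 1, and 6 fell with the replicate block. Of 11 cardiomyocyte markers 4 fell and 0 rose, with sums of 137769 to 139088 on MT+/+ saline, 131742 to 132205 on MT+/+ DOX, 137326 to 139287 on MT-/- saline and 126635 to 130795 on MT-/- DOX. That count was 2 without MT+/+ saline replicate 1 or 2, MT+/+ DOX replicate 2 or MT-/- saline replicate 1, and 1 without MT-/- saline replicate 2. With the replicate block 2 cardiomyocyte markers rose and 4 fell. Their part in the Sod2 change was not tested.

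Outside the cell the dismutase and the peroxidase moved in opposite directions: Sod3 fell and Gpx3 rose, in both genotypes. Sod3, the secreted copper-zinc dismutase, read 546 and 662 on MT+/+ saline, 330 and 317 on MT+/+ DOX, 706 and 738 on MT-/- saline and 355 and 354 on MT-/- DOX with 1417633_at. No DOX array reached the lowest saline array. Sod3 fell by 0.94 ± 0.10 on the log2 scale, 1.92-fold (adjusted p 7.32e-04), with -0.94 ± 0.14 in MT+/+ (adjusted p 0.0142) and -0.95 ± 0.14 in MT-/- (adjusted p 0.00701). The difference between the genotypes was -0.01 with a 95% interval of -0.46 to 0.44. The averaged fall was kept under all alternatives (adjusted p up to 0.00566 with an array left out), whereas the MT+/+ call was lost without MT+/+ saline replicate 2, MT+/+ DOX replicate 1 or MT+/+ DOX replicate 2 (up to 0.107) and the MT-/- call without MT-/- saline replicate 1 (0.0648) or 2 (0.0563).

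The other Sod3 probe set, 1417634_at, read 204 and 199, 140 and 142, 200 and 232, and 148 and 138 in the same order of groups, again with no overlap between DOX and saline. Its fall was smaller, at 0.50 ± 0.08 on the log2 scale (adjusted p 0.00481). The difference between the 2 Sod3 probe sets gave the same exact permutation p as that of Sod2 (0.0286, or 0.143 after Benjamini-Hochberg). Sod3 protein is known from vascular smooth muscle and fibroblasts. Of 11 vascular smooth muscle and pericyte markers 3 fell and 0 rose (1 fell without MT-/- saline replicate 1), with changes from -1.46 to 0.18, a median of -0.17 and summed intensities of 15000 to 15322 on MT+/+ saline, 12142 to 13167 on MT+/+ DOX, 14639 to 17794 on MT-/- saline and 10986 to 13049 on MT-/- DOX. Of 12 fibroblast markers 8 fell and 0 rose (1 rose with the replicate block), with changes from -3.38 to 0.20, a median of -1.34 and sums of 24511 to 25732, 16932 to 19386, 27056 to 30409 and 18342 to 19297. Acta2, smooth muscle actin, changed by -1.46 ± 0.21 and Col1a1, a chain of type I collagen, by -2.32 ± 0.19. Of 12 endothelial markers 4 fell and 0 rose, with sums of 16909 to 17224, 13731 to 15816, 18102 to 18372 and 15058 to 15856. That count was 0 without MT+/+ DOX replicate 2, 1 without MT+/+ saline replicate 2 or MT-/- saline replicate 1, and 2 without MT+/+ saline replicate 1 or MT-/- saline replicate 2. In the other direction 1 rose without MT+/+ saline replicate 2 or MT-/- saline replicate 2, and 2 rose with the replicate block. No tested marker of these lists was at 0, and their part in the Sod3 change was not tested. Of 4 adipocyte markers 1 rose and 0 fell, and of 5 epithelial and liver markers limma called 0.

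Gpx3, the glutathione peroxidase of plasma and extracellular fluid, read 2236 and 2217 on MT+/+ saline, 4032 and 4941 on MT+/+ DOX, 2662 and 3020 on MT-/- saline and 8526 and 7455 on MT-/- DOX. Every DOX array was above every saline array, and the arrays labelled MT-/- were above those labelled MT+/+ under each treatment. Gpx3 rose by 1.21 ± 0.08 on the log2 scale, 2.32-fold (adjusted p 1.43e-04), with 0.95 ± 0.11 in MT+/+ (1.94-fold, adjusted p 0.00688) and 1.47 ± 0.11 in MT-/- (2.77-fold, adjusted p 7.50e-04). The averaged rise was kept under all alternatives (adjusted p up to 0.00123 with an array left out), while the MT+/+ call was lost without MT+/+ saline replicate 2 (0.0582) or MT+/+ DOX replicate 2 (0.0551). The DOX effect was 0.52 ± 0.16 larger in MT-/- than in MT+/+ before correction (95% interval 0.16 to 0.88), but that difference did not pass over all probe sets (adjusted p 0.9995). The summed intensity of neutrophil markers was also highest on the MT-/- DOX arrays. Of 7 tested, 3 rose with DOX averaged over genotypes (Mmp8, S100a8 and S100a9) and 0 fell. Camp, Ngp, Mmp9 and Csf3r were not called, so the rise was not shared by the whole list. Mmp8 was tested only because it reached the array median on the 2 MT-/- DOX arrays, so that filter partly fixed its rise there. In MT-/- alone 3 rose (median 0.35), beside 6.74% of all genes called. In MT+/+ limma called 0 (median -0.07), beside 2.68%. For MT-/- against MT+/+ under DOX limma called 0, with differences from -0.19 to 2.47, beside 0.292%. The sums were 1240 to 1829 on MT+/+ saline, 1287 to 1374 on MT+/+ DOX, 970 to 1034 on MT-/- saline and 3103 to 3983 on MT-/- DOX. The averaged count was 1 without MT-/- saline replicate 1, no tested marker was at 0, and their part in the Gpx3 value was not tested.

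**Figure D3:**
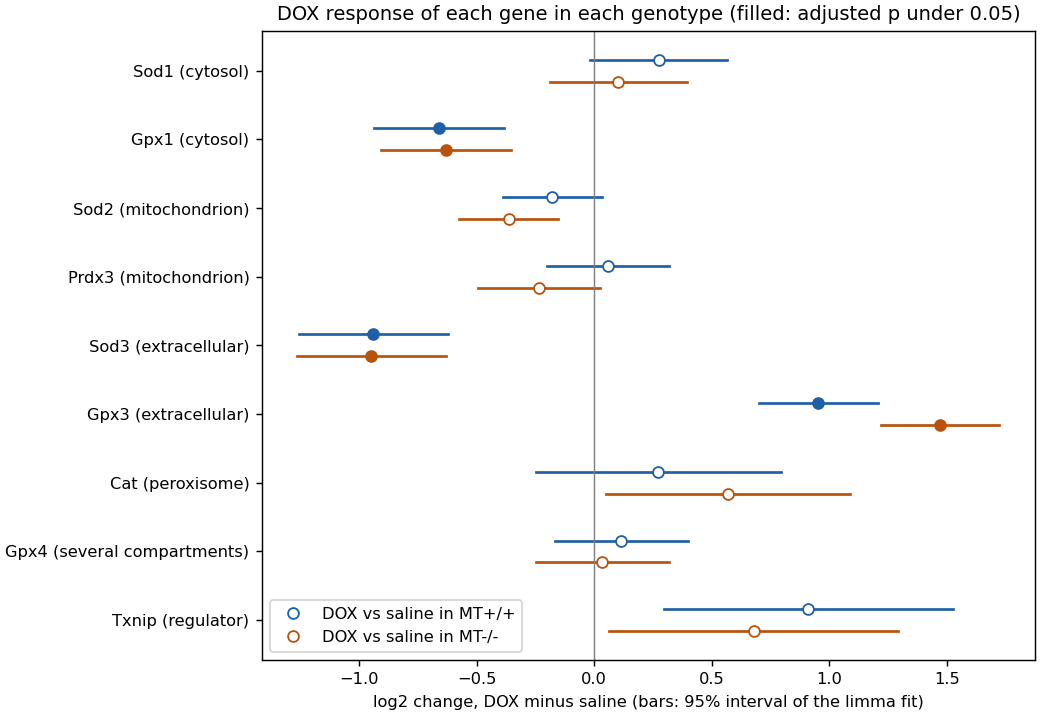
Log2 change after DOX in MT+/+ (blue) and in MT-/- (orange) hearts for the 9 measured genes, with points for the limma estimate, bars for its 95% interval and filled points for adjusted p under 0.05. Gpx1 and Sod3 lie at nearly the same value in both genotypes (-0.66 and -0.63, and -0.94 and -0.95), and Gpx3 lies at 0.95 in MT+/+ and 1.47 in MT-/-.

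Catalase, the peroxide-splitting enzyme of peroxisomes, was called with 1 of its 2 probe sets, which is not the representative. The representative, 1416429_a_at, read 1289 and 1975 on MT+/+ saline, 1886 and 2194 on MT+/+ DOX, 1244 and 1786 on MT-/- saline and 1834 and 2726 on MT-/- DOX. Replicates of a group stood far apart, the lower always being replicate 1, and saline and DOX arrays overlapped. The change was 0.42 ± 0.16 (adjusted p 0.129), with 0.27 ± 0.23 in MT+/+ and 0.57 ± 0.23 in MT-/-, and was not called. With replicate number as a block, the averaged change (adjusted p 0.00393) and that in MT-/- (0.00842) passed, and the mean over both probe sets was 0.50 (adjusted p 0.0194). The other probe set, 1416430_at, read 1102 and 1212, 1771 and 1694, 1172 and 1328, and 1846 and 2199 in the same order, with no overlap between saline and DOX. It rose by 0.57 ± 0.08 on the log2 scale, 1.49-fold (adjusted p 0.00353), and kept that call under all 16 alternatives run on it. In MT-/- it rose by 0.66 ± 0.12 (adjusted p 0.0153), lost without MT-/- saline replicate 1 (0.116) or 2 (0.101) or MT-/- DOX replicate 2 (0.0933) and with the compared groups alone (0.0530), and in MT+/+ its change was 0.48 ± 0.12 (adjusted p 0.0777, or 0.0177 with the block).

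Gpx4, which reduces lipid peroxides in membranes and occurs in cytosolic, mitochondrial and nuclear forms, read 6684 and 6375 on MT+/+ saline, 7125 and 6882 on MT+/+ DOX, 7358 and 6566 on MT-/- saline and 8097 and 6373 on MT-/- DOX with 1456193_x_at. The 4 DOX and 4 saline arrays overlapped. Its change was 0.07 ± 0.09 (adjusted p 0.665; 95% interval -0.13 to 0.27), and the other probe set, 1451695_a_at, gave 0.05 ± 0.09. Suffixes _x_at and _s_at mark Affymetrix probe sets that can match several transcripts, so the share of this signal that is from Gpx4 itself is uncertain.

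Txnip, an arrestin-family protein that inhibits thioredoxin and limits glucose uptake, rose with DOX averaged over genotypes. It read 4157 and 2190 on MT+/+ saline, 5588 and 6055 on MT+/+ DOX, 2079 and 2938 on MT-/- saline and 3351 and 4747 on MT-/- DOX with 1415996_at. Within each genotype the DOX arrays were above the saline arrays, but MT+/+ saline replicate 1 was above MT-/- DOX replicate 1. Txnip rose by 0.79 ± 0.19 on the log2 scale, 1.73-fold (adjusted p 0.0272), with 0.91 ± 0.27 in MT+/+ (adjusted p 0.130) and 0.68 ± 0.27 in MT-/- (adjusted p 0.200). The averaged call was lost without MT+/+ DOX replicate 1 (0.0679) or 2 (0.0844), MT-/- saline replicate 1 (0.0943) or MT-/- DOX replicate 2 (0.0870). The other probe set, 1415997_at, changed by 0.96 ± 0.28 (adjusted p 0.0552, or 0.0118 with the replicate block, 0.0476 with the deposited scaling and 0.0417 with median centring). On the MT+/+ saline arrays it read 2882 and 992. Without the first of these its change was 1.33 (adjusted p 0.00129), and without the second 0.57 (adjusted p 0.0280).

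The promoters of the 2 members that rose are shown because Txnip is a textbook target of the glucose-sensing factors MondoA and ChREBP, which bind with Mlx to paired E-box-like elements. The 250 bases before the start of each gene are from RefSeq (GRCm38.p6), in which 9 of the 10 genes have entries, and capitals mark matches to the motifs searched.
Txnip, chr3:96557707-96557956, plus strand: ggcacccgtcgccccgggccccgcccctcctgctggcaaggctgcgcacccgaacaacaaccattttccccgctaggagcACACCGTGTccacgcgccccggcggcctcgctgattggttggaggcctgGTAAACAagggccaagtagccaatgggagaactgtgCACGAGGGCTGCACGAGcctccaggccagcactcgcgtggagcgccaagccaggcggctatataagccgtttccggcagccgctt
Gpx3, chr11:54902604-54902853, plus strand: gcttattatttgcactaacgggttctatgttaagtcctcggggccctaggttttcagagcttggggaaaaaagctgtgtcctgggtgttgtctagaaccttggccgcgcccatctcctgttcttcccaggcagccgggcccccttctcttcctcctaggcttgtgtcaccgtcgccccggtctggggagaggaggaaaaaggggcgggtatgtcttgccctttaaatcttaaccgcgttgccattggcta
The motifs were searched on both strands. A pair of CACGAG copies 5 bases apart, searched as these exact letters, lay 85 to 69 bases before the Txnip start. It was in 1 of 32851 promoter entries of that length, which is Txnip itself. Carbohydrate response elements with other letters were not searched, so this count does not measure how rare the element is. The glucocorticoid response element core ACANNNTGT lay 170 to 162 bases before that start and is in 5.84% of entries. The forkhead element TGTTTAC lay 121 to 115 bases before it, on the minus strand, and is in 3.17%. None of the motifs overlapped another there. The antioxidant response element TGACNNNGC, in 10.2% of entries, lay 56 to 48 bases before the Sod1 start, and the Gpx3 window held none of the 4 motifs. A match describes letters in a window and says nothing of binding in these hearts.

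Between genotypes, 2 of the 9 genes were called when averaged over treatments, against 0.905% of all probe sets: Gpx3 was higher and Prdx3 lower on the arrays labelled MT-/-. The Gpx3 difference was 0.53 ± 0.08 (adjusted p 0.0222), and that of Prdx3 was -0.45 ± 0.08, 1.37-fold lower (adjusted p 0.0458). Under saline 0 members were called by limma, where the whole table had 0.186%. There 2 members and 2133 of the 24751 probe sets had an unadjusted p under 0.05. Under DOX 1 was called, Gpx3 at 0.79 ± 0.11 (adjusted p 0.0311), where the table had 0.283%. For the interaction limma called 0 members and 0% of probe sets, while 1 member, Gpx3, and 573 probe sets in all had an unadjusted p under 0.05. Prdx3 gave -0.31 ± 0.11 under saline (adjusted p 0.525) and -0.60 ± 0.11 under DOX (adjusted p 0.108, or 0.0109 with the replicate number as a block).

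Both genotype calls rest on few arrays. Prdx3 lost its averaged call with the deposited scaling (adjusted p 0.117), with median centring (0.145), without the trend (0.0850) and without any 1 array other than MT-/- DOX replicate 2 (up to 0.188). Gpx3 lost its averaged call without either MT+/+ saline array, MT+/+ DOX replicate 1 or either MT-/- saline array (up to 0.0956), and its call under DOX without any 1 of the 8 arrays (0.0518 to 0.220), without the trend (0.0737) and with the compared groups alone (0.117). The genotype difference of Txnip was -0.45 ± 0.19 (adjusted p 0.369) with its representative probe set. The other Txnip probe set, 1415997_at, was not called in the main fit. Its difference depended on the arrays used: it was -0.87 without MT+/+ saline replicate 2, which leaves 1 array in that group. For the other 6 genes the averaged genotype difference lay between -0.10 and 0.13, and none was called.

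Compared by compartment and averaged over genotypes, the 2 genes had opposite signs in the cytosol and outside the cell. In mitochondria the 2 genes had the same sign, though not in MT+/+ hearts alone (Prdx3 0.06, Sod2 -0.18). Sod1 and Prdx3 were not called for DOX, and the differences between genes were not tested. The averaged DOX changes were -0.65 (Gpx1) and 0.19 (Sod1) in the cytosol, -0.27 (Sod2) and -0.09 (Prdx3) in mitochondria, and -0.94 (Sod3) and 1.21 (Gpx3) outside the cell, with catalase at 0.42. The medians of each pair were -0.23, -0.18 and 0.13. These medians moved with the assignment: with Gpx1, which also occurs in mitochondria, counted there, the cytosolic median was 0.19 and the mitochondrial one -0.27. By enzyme class, 2 of the 3 dismutases fell and Sod1 was not called, while of the 3 glutathione peroxidases Gpx3 rose, Gpx1 fell and Gpx4 was not called.

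Enzymes that support the members showed both directions too. Beside the list counts here and below, 14.8% of all genes tested were called for DOX averaged over genotypes (908 higher, 1016 lower). Counts with the replicate block are not to be set beside that share, since the block called more of the whole table. The lists were chosen with earlier results of these data known. Of 15 other peroxidases and helpers of these enzymes tested, 2 rose and 5 fell, with a median change of -0.14. The falls included Glrx, the cytosolic glutaredoxin (-0.79 ± 0.11, adjusted p 0.00284), and Glrx5, a mitochondrial glutaredoxin of iron-sulfur cluster assembly (-0.52 ± 0.08, adjusted p 0.00507). Glrx2, also tested, was not called. Txnrd2, the mitochondrial thioredoxin reductase that serves Prdx3 (-0.42 ± 0.09), and the endoplasmic reticulum peroxidases Prdx4 (-0.35 ± 0.09) and Gpx8 (-0.52 ± 0.14) fell as well. The rises were Nnt, which supplies NADPH in mitochondria (0.40 ± 0.08, adjusted p 0.0127), and Txnrd1, the cytosolic thioredoxin reductase (0.50 ± 0.13, adjusted p 0.0400). Glrx and Glrx5 kept their calls with each array left out (adjusted p up to 0.0156 and 0.0266), and Nnt lost its call without MT-/- saline replicate 1 (0.0507). Txnrd2, Prdx4 and Gpx8 lost theirs without any 1 array other than MT-/- DOX replicate 1 (up to 0.0740, 0.108 and 0.143), and Txnrd1 without any 1 array other than MT+/+ DOX replicate 2 and MT-/- DOX replicate 2 (up to 0.136). The count of 5 was thus 2 without any 1 array other than MT-/- DOX replicate 1. Counted with the members by place, 1 of 9 cytosolic enzymes rose and 2 fell (median -0.01), 1 of 7 mitochondrial enzymes rose and 3 fell (median -0.27), 1 of 3 secreted proteins rose and 1 fell (median -0.09), and 2 of 3 endoplasmic reticulum peroxidases fell (median -0.35). The cytosolic rise was 0 without any 1 array except replicate 2 of MT+/+ DOX or MT-/- DOX, and 2 with the block. The mitochondrial falls were 1 without any 1 array except replicate 1 of MT+/+ DOX or MT-/- DOX, and 4 with the block, and the mitochondrial rise was 0 without MT-/- saline replicate 1. The endoplasmic reticulum falls were 0 without any 1 array except MT-/- DOX replicate 1.

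Gpx1, Gpx3 and Gpx4 contain selenocysteine, which is inserted by dedicated factors. Of 8 genes of selenoprotein synthesis limma called 0 in either direction, with a median of -0.08. Of 16 selenoproteins 3 rose and 3 fell, with a median of -0.02; besides Gpx3, Gpx1, Txnrd1 and Txnrd2, Selenon of the endoplasmic reticulum fell (-0.48 ± 0.08, adjusted p 0.00612) and Selenos rose (0.46 ± 0.12, adjusted p 0.0395, not called without any 1 array except MT-/- DOX replicate 1, up to 0.148). Selenop, the plasma selenium carrier, changed by -0.09 ± 0.10 and was not called. Without any 1 of the 4 saline arrays or MT+/+ DOX replicate 1, only 1 selenoprotein, Gpx3, rose.

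Of 21 peroxisomal proteins, catalase included through its representative probe set, 1 rose and 1 fell, with a median of 0.03. Pex16, a membrane assembly factor, gave 0.51 ± 0.13 (adjusted p 0.0345) and Abcd3, a fatty acid transporter, -0.48 ± 0.09 (adjusted p 0.0115). Pex16 lost its call without any 1 array except MT+/+ DOX replicate 1 and MT-/- DOX replicate 1 (up to 0.120), and 3 rose without MT-/- DOX replicate 1. With the replicate block 5 rose.

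On the side of oxidant production, 2 of 11 genes rose and 2 fell. Xdh, xanthine oxidoreductase (1.36 ± 0.10, adjusted p 1.92e-04), and Aox1, aldehyde oxidase (1.41 ± 0.13, adjusted p 4.97e-04), kept their calls with each array left out. Cybb and Ncf4, the catalytic and a regulatory subunit of the phagocyte NADPH oxidase, fell by 0.62 ± 0.15 and 0.40 ± 0.09 on the log2 scale (adjusted p 0.0261 and 0.0196), beside the macrophage markers given above, and both calls were lost without either MT-/- saline array, MT+/+ saline replicate 1 or MT-/- DOX replicate 2 (up to 0.0923 and 0.0716), that of Cybb also without MT+/+ DOX replicate 2 and that of Ncf4 without MT+/+ DOX replicate 1. With the replicate block 4 fell.

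Of 12 regulators of antioxidant genes 3 rose and 1 fell, with a median of 0.15. Bach1, a repressor at antioxidant response elements, rose by 0.74 ± 0.12 on the log2 scale (adjusted p 0.00458), and Sirt3, the mitochondrial deacetylase that activates Sod2 protein, fell by 0.61 ± 0.11 (adjusted p 0.00717). Both kept their calls with each array left out. Foxo3, a forkhead factor known to drive Sod2 and catalase, rose by 0.93 ± 0.23 (adjusted p 0.0304) and Sirt1, a nuclear deacetylase, by 0.81 ± 0.20 (adjusted p 0.0331). Foxo3 lost its call without any of the 4 saline arrays or MT+/+ DOX replicate 2 (up to 0.102), and Sirt1 without replicate 1 of MT+/+ saline or MT-/- saline, either MT+/+ DOX array or MT-/- DOX replicate 2 (up to 0.114). With the replicate block 5 regulators rose.

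Among 11 arrestin family genes and targets of MondoA, Txnip included, 2 rose and 1 fell, with a median of 0.09. Slc2a1, the glucose transporter GLUT1, gave 0.91 ± 0.24 (adjusted p 0.0401) and Hk2, a hexokinase, -0.37 ± 0.10 (adjusted p 0.0475). Arrdc4, the arrestin closest to Txnip as a MondoA target, gave -0.37 ± 0.12 (adjusted p 0.0858), a sign opposite to that of Txnip, and Mlxip, which encodes MondoA, gave 0.34 ± 0.10 (adjusted p 0.0608). Neither was called, but with the replicate block both passed (0.00886 and 0.0119). Slc2a1 lost its call without any 1 array except MT+/+ saline replicate 2 and MT-/- DOX replicate 1 (up to 0.129), and Hk2 without any 1 array other than MT+/+ saline replicate 1 (up to 0.165). With the replicate block 5 rose and 2 fell.

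**Figure D4:**
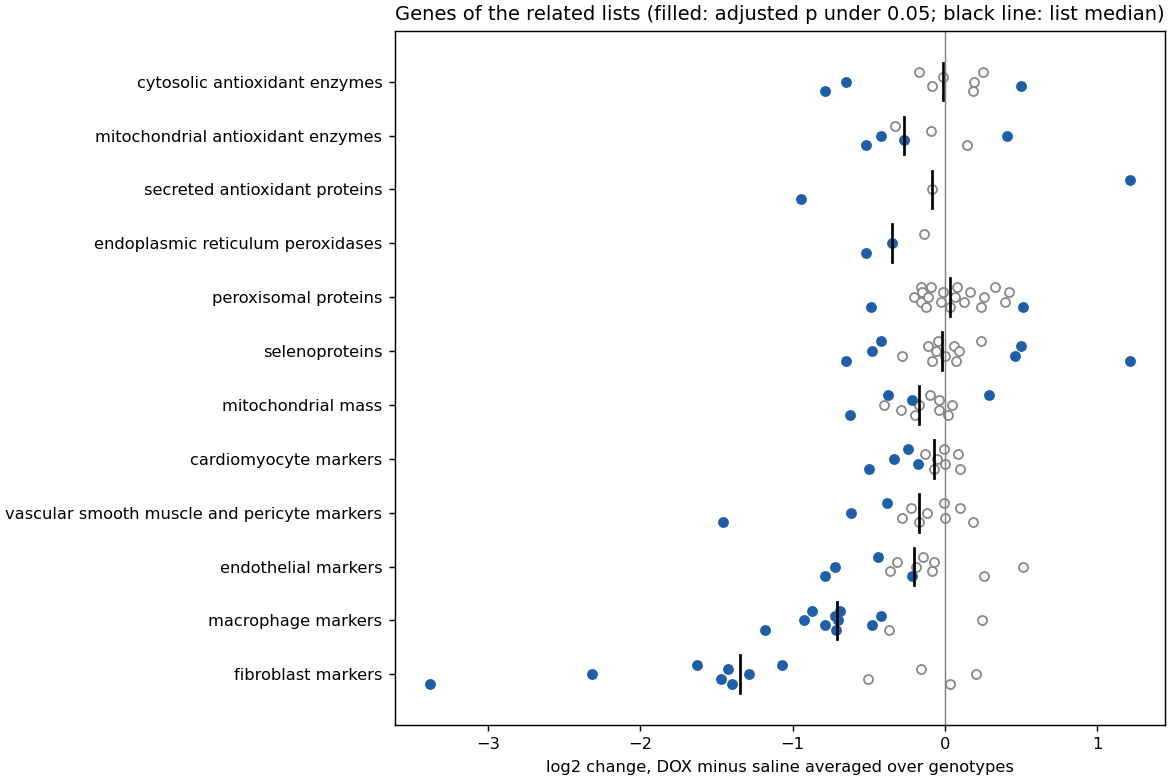
Averaged log2 change after DOX (horizontal axis) of each tested gene in 12 of the lists, with filled points for adjusted p under 0.05 and a black line for the median of a list. The antioxidant, peroxisomal and selenoprotein lists have filled points on both sides of 0, and the macrophage and fibroblast medians lie at -0.71 and -1.34.

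The genes whose profile over the 8 arrays was most like that of a called member were found by the root-mean-square difference of log2 values centred on each gene's mean. For Gpx3 the closest was Mt1, at 0.0875 beside a standard deviation of 0.679 for Gpx3 itself, followed by Bach2 (0.161), a transcriptional repressor, and Nrap (0.175), an actin-linked muscle protein. For Sod3 they were Cd48 (0.0259), a leukocyte surface protein, Anxa3 (0.0639) and Nid1 (0.0938), a basement membrane protein, beside 0.481. For Gpx1 they were Dpysl2 (0.0533), Tsc22d4 (0.0542) and Tmsb4x (0.0646), an actin-binding peptide, beside 0.337. Sod2 was closest to Slc25a11 (0.0439), the mitochondrial oxoglutarate carrier, Isca1 (0.0487) and Isca2 (0.0507), both of mitochondrial iron-sulfur cluster assembly, beside 0.162. Txnip had no profile as near relative to its own spread: Art3 at 0.193, Chac1 at 0.208 and Zfp869 at 0.270, beside 0.533. All these profiles share the same 8 arrays. Mt1 was represented by 1422557_s_at, which by its suffix can match several transcripts and changed by 1.18 ± 0.09 after DOX averaged over genotypes. The other, dim Mt1 probe set, 1451612_at, changed by 0.24 ± 0.11 (limma adjusted p 0.196).

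**Figure D5:**
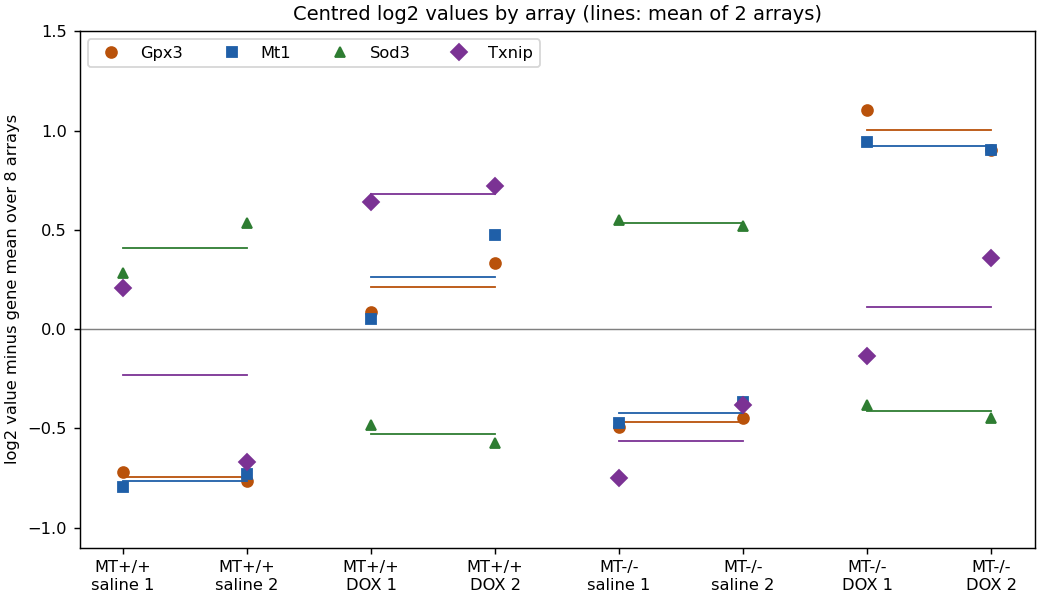
Log2 value minus the mean of that gene over the 8 arrays (vertical axis) for each array (horizontal axis), for Gpx3, Mt1 (1422557_s_at), Sod3 and Txnip, with short lines at the mean of the 2 arrays of a group. Gpx3 and Mt1 lie close together on all 8 arrays, Sod3 is above 0 on the 4 saline and below 0 on the 4 DOX arrays, and the 2 MT+/+ saline arrays of Txnip stand far apart.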

How the data were processed

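Mouse heart RNA was read on 1-colour Affymetrix arrays, 8 in all, from 2 µg of total RNA each. The deposited values are 1 linear intensity per probe set and array, made with GCOS 1.4, per the submitters' processing notes; signal algorithm, scaling target and detection calls: not given in the sources used here. Groups and replicate numbers came from the labels, and 0 columns could not be mapped. Of 45101 probe sets, 64 controls were left out. Trimmed array means differed by up to 8.06%, so the arrays were quantile-normalized, and log2(intensity + 16) was tested for the 24751 probe sets at or above the array median on at least 2 of the 8 arrays.

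limma 3.58.1 in R 4.3.3 fitted 4 group means over all arrays (eBayes with a trend, 4 residual degrees of freedom, prior worth 4.66) for 7 comparisons; all p-values are two-sided with Benjamini-Hochberg adjustment unless stated. The procedure was tested on simulated data with planted changes of 1 or 2 log2 units and independent noise on each array. That test does not cover smaller changes or arrays that deviate together. An exact test of 2 arrays against 2 was not used. Arrays with the same replicate number deviated together in all 6 pairs of groups (r 0.360 to 0.542 across probe sets). The main fit did not use this pairing. Only the replicate block, an alternative, took the numbers to pair the arrays. The pairing comes from the data, since the labels give only the number. Gene names came from the platform table, single symbols only. Every member probe set is given, with up to 4 genes of a list by smallest p and the 3 nearest profiles of each member called; other list genes were named after their values were seen. The members and all 21 lists were chosen with earlier results of these data known. Alternatives were another scaling or filter, an added 1 or 64 in place of 16, no trend, the compared groups alone, the replicate block, the mean of probe sets, other compartments and each array left out.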

Additional observations from a re-analysis of the deposited data

How the results depend on the processing

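No called value of a member turned its direction under any alternative. Of 2267 member values recomputed, 2045 kept direction and side of the threshold, 82 lost and 33 gained a call, and 107 uncalled values changed sign. With each array left out in turn, members called numbered 3 to 5 for DOX averaged, 0 to 3 for MT+/+ hearts with DOX, 1 to 4 for MT-/- hearts with DOX, 0 to 2 for genotype averaged and 0 for genotype under DOX. With the replicate block, which pairs arrays by number, 6702 probe sets were called for DOX averaged, 2740 in MT+/+, 4188 in MT-/-, 1202 for genotype averaged, 209 under saline, 383 under DOX and 1 for the interaction; members called were 5 for DOX in MT-/- and 2 for genotype under DOX, and the block changed no call of a representative probe set other than those printed beside the results. In the order of those 7 comparisons, the main fit called 3433, 613, 1538, 224, 46, 70 and 0 of the 24751 probe sets. Genotype averaged had 1 member with the deposited scaling, with median centring or without the trend. Genotype under DOX had 0 without the trend or with the compared groups alone. With the mean of probe sets per gene, 7 members were called for DOX averaged, and the medians by compartment were -0.13 (cytosol), -0.28 (mitochondrion) and 0.25 (extracellular). With Gpx1 counted as mitochondrial they were 0.19 and -0.27, and with Gpx4 counted there the mitochondrial median was -0.089. The causes were not tested. With 2 arrays a group, the precision is set by the number of arrays. Dim probe sets, such as 1417194_at of Sod2, carry more background than bright ones.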
